A study of Mus musculus with 16 samples.

Results

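The 47 genes described here are interferon-stimulated genes, that is, genes whose transcription rises when cells are exposed to interferons. They were taken by gene symbol from a table of 55385 genes counted in mouse hippocampus, and all 47 of 47 symbols were found. All 47 were among the 17132 genes tested. Of the 47, 44 would have passed the filter on low counts through libraries without the transgenes, and Zbp1, Oas3 and Oasl1 passed only through libraries with them.

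Polyadenylated RNA of the hippocampus was sequenced from mice aged 9 months in 16 libraries, 4 of each genotype, and each genotype had 2 females and 2 males. The 5xFAD-Dp16 mice carried both the 5xFAD transgenes and the Dp16 duplication. The 5xFAD mice carried the transgenes without the duplication. The transgenes include human APP with mutations of familial Alzheimer disease. The Thy1 promoter, which is active mainly in neurons, drives them, so that amyloid arises from overexpression and the human transcripts were not analysed here. The Dp16 mice carried a duplicated stretch of chromosome 16, which corresponds to a large part of human chromosome 21, and no 5xFAD transgene. Genes in the stretch are present in 3 copies in Dp16 and 5xFAD-Dp16 mice. Wild-type (WT) mice were labelled C57BL/6J, treatment was labelled as not applicable, and the background strain of the other groups, litter and batch were not given in the sources used here. Libraries are named by genotype and title number. The design text counts 4 mice per genotype, and no label ties a library to an animal otherwise, so p-values measure the spread between these libraries.

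Type I interferons bind the receptor formed by IFNAR1 and IFNAR2, and interferon gamma binds IFNGR1 and IFNGR2. The kinases JAK1, TYK2 and JAK2 then phosphorylate transcription factors of the STAT family. The complex ISGF3, which contains STAT2 and IRF9, binds interferon-stimulated response elements, whereas STAT dimers bind gamma-activated sites. The products of the target genes sense foreign RNA, block its translation, tag proteins with the ubiquitin-like ISG15 and adapt the proteasome to antigen presentation. In the brain, microglia near amyloid plaques are known to express such genes. Ifnar1, Ifnar2, Ifngr2 and Il10rb lie in the stretch that Dp16 mice carry in 3 copies. None of the 47 genes does: Dtx3l, Parp9, Parp14 and Rtp4 are on chromosome 16 but outside the interval chr16:75540514-97962622 (GRCm38), from Lipi to Zbtb21, which was taken as the triplicated segment.

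The promoters of several of these genes carry repeats of the core letters of an interferon-stimulated response element. The 7 shown were picked among promoters with a match, to this core in the first 5 and to that of a gamma-activated site in the last 2. Their genes differ in kind: the ISG15 modifier, an RNA-binding effector, a pair of close relatives, a membrane protein, a transcription factor and a proteasome subunit. Each line gives 200 bases before the annotated start, 5′ to 3′ on the strand of the gene, from RefSeq on GRCm38.p6. Capitals mark GAAANNGAAA or its reverse complement in the first 5 and TTCNNNGAA, the core of a gamma-activated site, in the last 2, where N is any base. Isg15 lies at chr4:156200819-156201018 (minus strand), Ifit1 at chr19:34640689-34640888, Ifit3 at chr19:34583329-34583528 and Ifit3b at chr19:34607757-34607956 (plus strand). Bst2 lies at chr8:71537473-71537672 (minus strand), Irf8 at chr8:120736158-120736357 and Psmb8 at chr17:34197995-34198194 (plus strand).
Isg15: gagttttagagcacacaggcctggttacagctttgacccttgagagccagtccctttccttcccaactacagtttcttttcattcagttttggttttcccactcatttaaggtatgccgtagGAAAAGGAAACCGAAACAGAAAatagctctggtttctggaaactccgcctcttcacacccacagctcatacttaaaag
Ifit1: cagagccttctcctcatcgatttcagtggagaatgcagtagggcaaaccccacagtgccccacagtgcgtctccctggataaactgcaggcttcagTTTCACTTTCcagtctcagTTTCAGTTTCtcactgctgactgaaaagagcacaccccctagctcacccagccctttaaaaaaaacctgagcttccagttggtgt
Ifit3: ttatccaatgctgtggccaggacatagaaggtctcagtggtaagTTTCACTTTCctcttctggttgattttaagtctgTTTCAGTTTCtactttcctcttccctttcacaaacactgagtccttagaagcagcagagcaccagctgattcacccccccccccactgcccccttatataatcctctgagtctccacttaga
Ifit3b: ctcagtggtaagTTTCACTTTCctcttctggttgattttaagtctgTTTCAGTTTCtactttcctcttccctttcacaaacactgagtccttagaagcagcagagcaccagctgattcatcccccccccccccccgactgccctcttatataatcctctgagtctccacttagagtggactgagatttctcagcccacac
Bst2: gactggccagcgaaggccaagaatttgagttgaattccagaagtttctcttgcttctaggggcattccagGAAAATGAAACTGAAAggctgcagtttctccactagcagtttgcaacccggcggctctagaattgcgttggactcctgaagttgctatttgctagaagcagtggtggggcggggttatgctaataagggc
Irf8: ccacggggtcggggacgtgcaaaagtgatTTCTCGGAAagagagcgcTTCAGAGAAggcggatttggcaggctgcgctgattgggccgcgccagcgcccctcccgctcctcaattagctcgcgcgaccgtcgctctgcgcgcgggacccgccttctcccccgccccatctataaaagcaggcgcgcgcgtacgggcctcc
Psmb8: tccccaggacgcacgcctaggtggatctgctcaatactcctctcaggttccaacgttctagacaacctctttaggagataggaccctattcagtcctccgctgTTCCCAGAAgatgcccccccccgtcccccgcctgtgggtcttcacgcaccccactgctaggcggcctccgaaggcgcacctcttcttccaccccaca

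In Isg15, 3 overlapping copies of GAAANNGAAA began 78, 72 and 66 bases before the start and formed 1 uninterrupted run. Bst2 had 2 overlapping copies, at 130 and 124 bases. Ifit3 and Ifit3b had the same pair of matches, and 86.2% of 218 aligned bases of their upstream windows were identical. GAAANNGAAA was searched on both strands, with overlapping matches allowed, in windows from 250 bases before to 50 bases after the start. Only the first window listed for each gene symbol was counted, and 7 members had 2 or more windows. GAAANNGAAA was found in 16 of the 38 members with a window (42.1%), in 3.49% of 27025 promoters and in 2.95% of the 12425 promoters of tested genes. TTCNNNGAA, which reads the same on either strand in its fixed letters, was found in 9 of 38 members (23.7%), in 8.47% of all promoters and in 6.7% of those of tested genes. A match describes letters and shows no binding. The 16 members with GAAANNGAAA and the 22 without had nearly the same median log2 fold change in 5xFAD against WT, 1.08 and 1.11, with 15 and 18 called.

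The libraries held between 16922937 and 25308693 counted reads. Neuron markers were abundant in all of them: the summed level of 10 neuron genes in CPM, that is, counts relative to the TMM-scaled library total, was 11330 to 14436 in 5xFAD-Dp16, 7074 to 14179 in 5xFAD, 11019 to 15793 in Dp16 and 10962 to 14761 in WT libraries. Ifnar1 matched the labels of the duplication, with 55.8 to 63.8 CPM in 5xFAD-Dp16 and 50.7 to 59.2 CPM in Dp16, against 37.0 to 38.5 CPM in 5xFAD and 35.9 to 39.2 CPM in WT libraries. Markers of the thalamus, which borders the hippocampus, were high in 6 libraries (5xFAD-Dp16 1, 5xFAD 6, 13 and 15, Dp16 14 and WT 4), with scores of 1.26 to 1.97 on the log2 scale, against -0.90 to -0.41 in the other 10. Choroid plexus markers summed to 72.0 to 3015 CPM in 5xFAD-Dp16, 58.7 to 6182 CPM in 5xFAD, 47.9 to 964 CPM in Dp16 and 457 to 8190.0 CPM in WT libraries. Counts of called members in the comparisons of groups with and without the transgenes are given below with and without these libraries. For the interaction and the sex difference no separate values without them are given.

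Most of the interferon-stimulated genes were higher in mice with the 5xFAD transgenes, with or without the duplication, and none was called in mice with the duplication alone. In 5xFAD against WT, 40 of 47 members rose and none fell, where 5.31% of all tested genes rose and 1.96% fell. In 5xFAD-Dp16 against WT, 34 rose and none fell (3.1% of all genes rose and 0.0992% fell), and in 5xFAD-Dp16 against Dp16, 31 rose and none fell (2.99% and 0.035%). In Dp16 against WT none of the 47 was called in either direction, where 0.222% of all genes rose and 0.00584% fell. Calls are from edgeR's quasi-likelihood test, with Benjamini-Hochberg adjusted p under 0.05 over all 17132 genes. Over the 44 members that pass the filter without the transgenic libraries, the counts were 38, 32, 30 and 0.

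The median log2 fold change was 1.22 in 5xFAD against WT (2.33-fold), 1.08 in 5xFAD-Dp16 against WT (2.11-fold), 0.96 in 5xFAD-Dp16 against Dp16 (1.95-fold) and 0.13 in Dp16 against WT (1.10-fold). Across all tested genes the corresponding medians were 0.03, -0.01, -0.01 and 0.00. The summed level of the 47 genes was 416 to 537 CPM in 5xFAD-Dp16, 433 to 537 CPM in 5xFAD, 244 to 321 CPM in Dp16 and 233 to 294 CPM in WT libraries. Every library with the transgenes lay above every library without them in this sum.

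**Figure D1:**
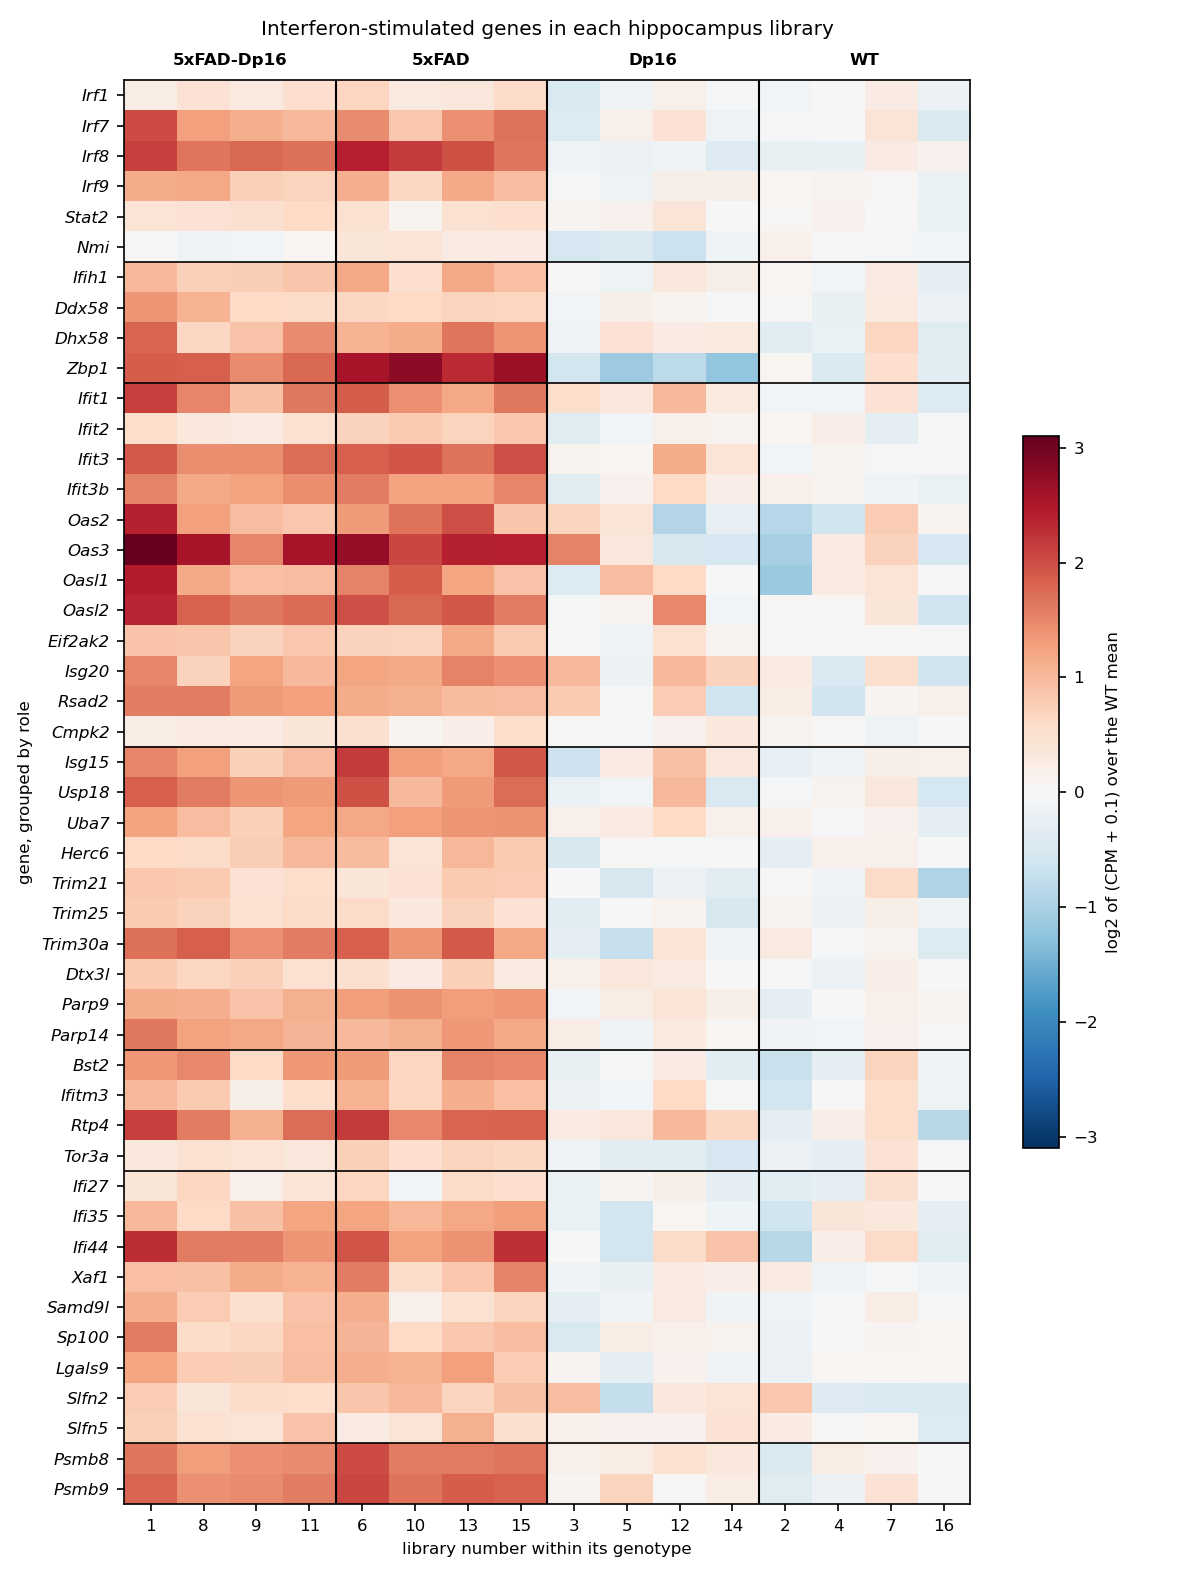
Level of each of the 47 genes (rows, grouped by role in the order of the text: transcription factors, RNA sensors, effectors on RNA, the ISG15 and ubiquitin pathway, membrane proteins, other induced proteins, immunoproteasome) in each of the 16 libraries (columns, title numbers), as log2 of (CPM + 0.1) relative to the WT mean. The 8 columns of 5xFAD-Dp16 and 5xFAD are red for nearly all genes, and the 8 columns of Dp16 and WT are near white.

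For 27 of the 47 members, all 8 libraries with the transgenes lay above all 8 without, against 2.67% of all tested genes. All 4 libraries of 5xFAD lay above all 4 of WT for 40 members and below for none (7.62% and 4.76% of all genes). For 5xFAD-Dp16 against WT 38 lay above and none below (6.1% and 2.29%), and for 5xFAD-Dp16 against Dp16 36 lay above and none below (6.56% and 3.44%). Of the 44 members that pass the filter without the transgenic libraries, 37, 35 and 35 lay above in these 3 comparisons. The 27 members include Zbp1, which passed only through transgenic libraries, but neither Oas3 nor Oasl1. In Dp16 against WT no member lay wholly above (2.41% of all genes) and 2, Nmi and Zbp1, lay wholly below (2.07%). Calls made in all 3 of the comparisons of transgenic with non-transgenic groups named so far covered 30 members, and 7 members (Cmpk2, Ifi27, Nmi, Oas2, Oasl1, Slfn2 and Trim21) were called in none of them. These 3 are not independent. The comparison of 5xFAD-Dp16 with WT shares its WT libraries with 5xFAD against WT. It shares its 5xFAD-Dp16 libraries with 5xFAD-Dp16 against Dp16. The share of all genes called in all 3 is not given here.

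The 6 largest log2 fold changes in 5xFAD against WT were those of Oas3 (3.12), Zbp1 (3.01), Irf8 (2.09), Psmb9 (1.94), Ifi44 (1.93) and Rtp4 (1.91), and the 6 smallest those of Nmi (0.34), Cmpk2 (0.35), Stat2 (0.40), Ifi27 (0.45), Dtx3l (0.46) and Irf1 (0.50). In 5xFAD-Dp16 against WT the largest were Oas3 (3.24), Zbp1 (2.13), Oasl2 (1.95), Ifi44 (1.91), Irf8 (1.83) and Oasl1 (1.74), and the smallest Nmi (-0.03), Cmpk2 (0.28), Irf1 (0.38), Tor3a (0.40), Ifit2 (0.41) and Ifi27 (0.43). In 5xFAD-Dp16 against Dp16 they were Zbp1 (3.62), Oas3 (2.45), Irf8 (2.05), Trim30a (1.81), Ifi44 (1.53) and Oas2 (1.52), against Cmpk2 (0.16), Slfn2 (0.21), Stat2 (0.34), Slfn5 (0.40), Nmi (0.40) and Isg20 (0.44). Oas3, Zbp1 and Oasl1 passed the filter only through transgenic libraries. The highest group mean was that of 5xFAD-Dp16 for 17 members and of 5xFAD for 30, and the lowest was that of Dp16 for 15 members and of WT for 32.

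Without the 6 libraries of high thalamus markers, which leaves 5xFAD 10 as the only 5xFAD library, 13 members rose in 5xFAD against WT and the median was 1.02. That fit assumes that a lone library varies like those of the other groups. The 13 were Irf8, Zbp1, Ifit1, Ifit2, Ifit3, Ifit3b, Uba7, Parp9, Parp14, Rtp4, Lgals9, Psmb8 and Psmb9. The same fit called 29 members in 5xFAD-Dp16 against WT and 24 in 5xFAD-Dp16 against Dp16.

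Among the 6 transcription factors, 5 rose in 5xFAD against WT, 4 in 5xFAD-Dp16 against WT and 3 in 5xFAD-Dp16 against Dp16, and none was called in Dp16 against WT. In these comparisons 5.31%, 3.1%, 2.99% and 0.222% of all tested genes rose, which also holds for the counts of the roles below. Irf8, which directs the development of microglia and other myeloid cells, had 24.5, 17.8, 19.4 and 18.4 CPM in 5xFAD-Dp16 libraries and 30.2, 25.5, 22.3 and 17.8 CPM in 5xFAD libraries. It had 5.01, 4.92, 5.12 and 4.23 CPM in Dp16 libraries and 4.75, 4.75, 6.73 and 6.13 CPM in WT libraries. The groups with and without the transgenes did not overlap, and the log2 fold change was 2.09 ± 0.16 (SE) in 5xFAD against WT (adjusted p = 5.35e-07) and 2.05 ± 0.16 in 5xFAD-Dp16 against Dp16 (adjusted p = 1.28e-06, edgeR). In Dp16 against WT it was -0.22 ± 0.16 (adjusted p = 0.986).

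Irf7, the factor that amplifies the production of type I interferon, had 11.7, 6.92, 6.23 and 5.68 CPM in 5xFAD-Dp16 libraries, 7.83, 5.06, 7.62 and 9.14 CPM in 5xFAD libraries, 2.05, 3.15, 3.87 and 2.50 CPM in Dp16 libraries and 2.65, 2.78, 3.72 and 2.02 CPM in WT libraries. The lowest transgenic library was above the highest library without transgenes, and library 1 of 5xFAD-Dp16 stood above the rest. Its log2 fold change was 1.42 ± 0.24 in 5xFAD against WT and 1.41 ± 0.24 in 5xFAD-Dp16 against Dp16, and 0.04 ± 0.24 in Dp16 against WT. Irf9, the DNA-binding subunit of ISGF3, had 18.8, 19.4, 14.1 and 13.6 CPM in 5xFAD-Dp16, 18.6, 13.2, 19.3 and 16.3 CPM in 5xFAD, 8.18, 7.54, 9.53 and 9.61 CPM in Dp16 and 8.76, 9.03, 8.62 and 7.31 CPM in WT libraries. It rose by a log2 fold change of 1.00 ± 0.15 in 5xFAD against WT (adjusted p = 0.000432) and was 0.05 ± 0.15 in Dp16 against WT.

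Stat2, the ISGF3 subunit that carries the activation domain, had one of the smaller changes. It had 28.9, 29.3, 30.5 and 33.1 CPM in 5xFAD-Dp16, 29.9, 23.1, 29.7 and 30.6 CPM in 5xFAD, 22.7, 23.6, 28.4 and 21.4 CPM in Dp16 and 22.2, 23.5, 21.6 and 18.7 CPM in WT libraries. Library 10 of 5xFAD overlapped with WT, and the call of 0.40 ± 0.10 (log2) in 5xFAD against WT (adjusted p = 0.0265) was lost in 5 of 8 fits that left out 1 library (adjusted p up to 0.112, without 5xFAD 15). Irf1, a factor best known from the response to interferon gamma, was called in 5xFAD against WT (log2 fold change 0.50 ± 0.15, adjusted p = 0.0486), and this call was lost in 6 of 8 such fits (adjusted p up to 0.162, without WT 2). Nmi, a protein that binds STATs, was not called in these comparisons.

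All 4 RNA and nucleic acid sensors rose in each of the 3 comparisons. Of these, Zbp1 passed the filter only through transgenic libraries. Ifih1 and Ddx58 encode MDA5 and RIG-I, the receptors of viral double-stranded RNA, and Dhx58 encodes LGP2, which regulates them. Their log2 fold changes in 5xFAD against WT were 0.99 ± 0.15, 0.68 ± 0.16 and 1.42 ± 0.26. The call of Ddx58 there was lost in 4 of 8 fits that left out 1 library (adjusted p up to 0.0612, without WT 2). In 5xFAD-Dp16 against Dp16 the values were 0.75 ± 0.14, 0.92 ± 0.16 and 1.05 ± 0.26, and the call of Dhx58 was lost in 6 of 8 such fits (adjusted p up to 0.144, without Dp16 12).

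Zbp1 senses Z-form nucleic acids and can start necroptosis. It had 26, 25, 17 and 23 reads in 5xFAD-Dp16 libraries, 46, 54, 32 and 57 in 5xFAD libraries, 3, 1, 2 and 1 in Dp16 libraries and 4, 3, 8 and 4 in WT libraries. The 4 groups did not overlap after scaling: 0.82 to 1.14 CPM in 5xFAD-Dp16, 1.55 to 2.19 CPM in 5xFAD, 0.042 to 0.12 CPM in Dp16 and 0.14 to 0.38 CPM in WT. The transgene effect was called on either background, at 3.01 ± 0.34 in 5xFAD against WT and 3.62 ± 0.40 in 5xFAD-Dp16 against Dp16. The lower levels with the duplication were not called, at -0.89 ± 0.29 in 5xFAD-Dp16 against 5xFAD (adjusted p = 0.142) and -1.50 ± 0.46 in Dp16 against WT (adjusted p = 0.705, edgeR). The 7 reads of Dp16 and 19 of WT in total limit the precision of this second value.

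**Figure D2:**
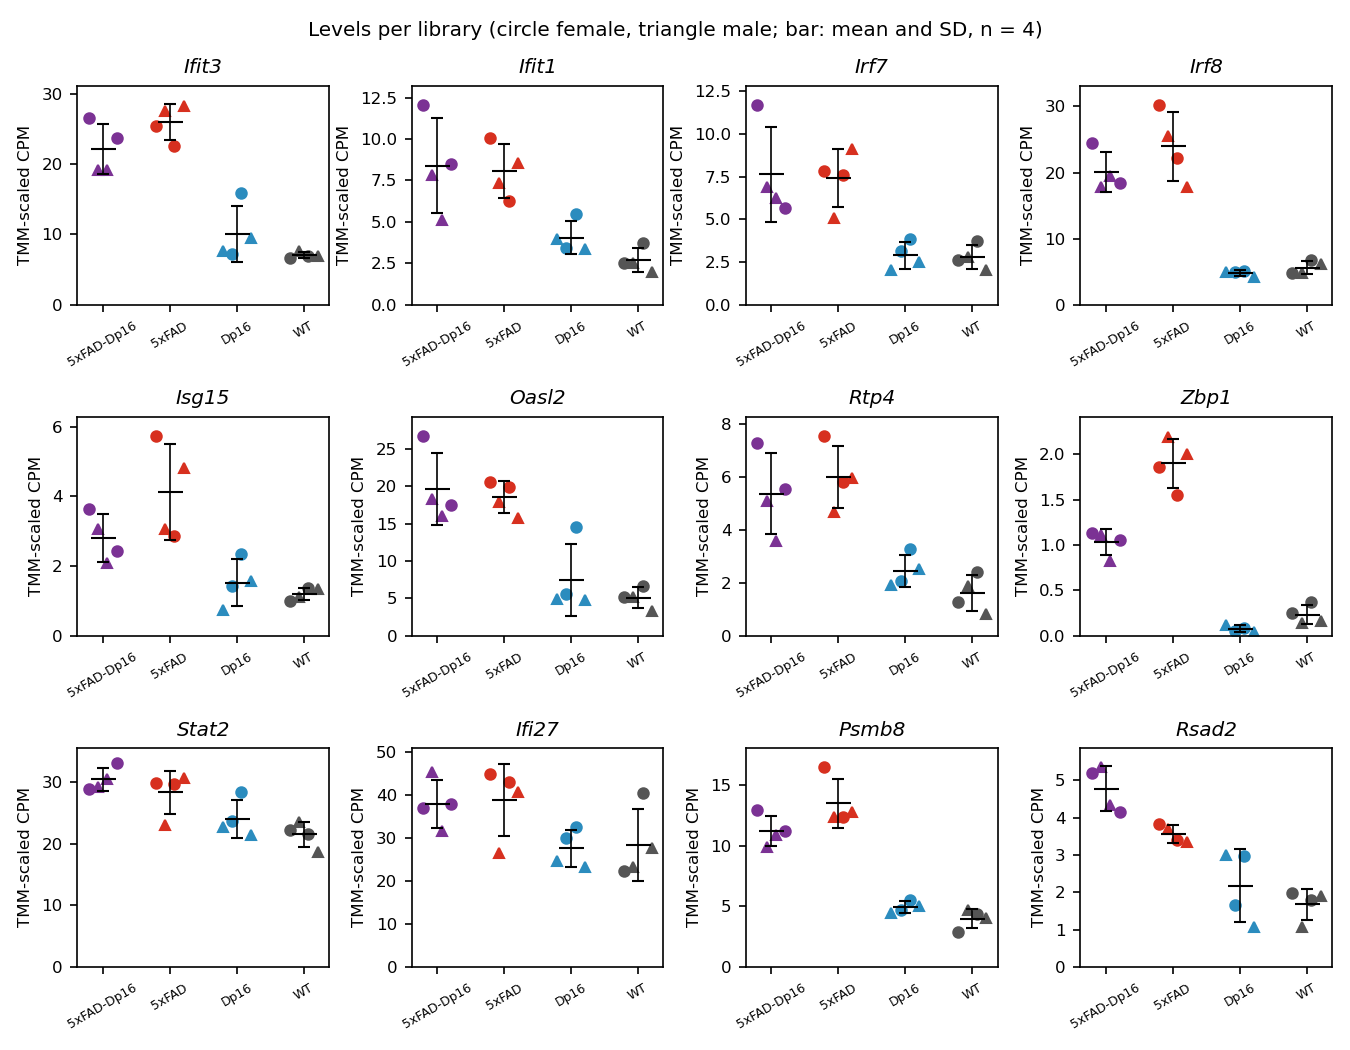
TMM-scaled CPM of 12 of the members in each library (circles female, triangles male), with the mean and SD over 4 libraries per genotype. For Irf8, Psmb8 and Zbp1 the transgenic groups lie clear of the others. For Ifi27 and Stat2 the groups overlap.

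Of 12 effectors that act on RNA, translation or nucleotides, 9 rose in 5xFAD against WT, 7 in 5xFAD-Dp16 against WT and 6 in 5xFAD-Dp16 against Dp16. Of the 12, Oas3 and Oasl1 passed the filter only through transgenic libraries. Oas3 is counted in both comparisons with WT. Ifit3, a tetratricopeptide protein that works with IFIT1 in binding foreign RNA, had 26.5, 19.1, 19.2 and 23.7 CPM in 5xFAD-Dp16 and 25.4, 27.5, 22.6 and 28.3 CPM in 5xFAD libraries. It had 7.64, 7.27, 15.8 and 9.52 CPM in Dp16 and 6.66, 7.63, 6.87 and 6.93 CPM in WT libraries. Library 12 stood above the other Dp16 libraries but below all transgenic ones. The log2 fold change was 1.89 ± 0.20 in 5xFAD against WT (adjusted p = 1.51e-05), 1.13 ± 0.19 in 5xFAD-Dp16 against Dp16 (adjusted p = 0.00205, edgeR) and 0.51 ± 0.20 in Dp16 against WT (adjusted p = 0.763).

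Ifit1, which recognises messenger RNA caps that lack methylation, had 12.1, 7.81, 5.12 and 8.51 CPM in 5xFAD-Dp16, 10.1, 7.37, 6.26 and 8.57 CPM in 5xFAD, 3.99, 3.42, 5.47 and 3.34 CPM in Dp16 and 2.53, 2.54, 3.72 and 1.97 CPM in WT libraries. Dp16 12 exceeded the lowest 5xFAD-Dp16 library. Its log2 fold change was 1.61 ± 0.23 in 5xFAD against WT and 1.02 ± 0.22 in 5xFAD-Dp16 against Dp16, and the call in 5xFAD-Dp16 against Dp16 was lost in 3 of 8 fits that left out 1 library (adjusted p up to 0.0777, without Dp16 5). In Dp16 against WT it was 0.60 ± 0.23 (adjusted p = 0.763, edgeR). Ifit3b and Ifit2, of the same gene cluster on chromosome 19, rose in 5xFAD against WT by 1.44 ± 0.16 and 0.77 ± 0.13.

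Oasl2, a member of the oligoadenylate synthetase family, had 26.7, 18.3, 16.02 and 17.5 CPM in 5xFAD-Dp16, 20.6, 17.9, 19.8 and 15.8 CPM in 5xFAD, 4.89, 5.56, 14.6 and 4.83 CPM in Dp16 and 5.24, 5.23, 6.69 and 3.28 CPM in WT libraries. Again Dp16 12 was high and lay just below the lowest transgenic library. It rose by 1.88 ± 0.26 in 5xFAD against WT and by 1.44 ± 0.26 in 5xFAD-Dp16 against Dp16 (log2). Oas3, whose product makes the activator of RNase L, had 38, 25, 10 and 24 reads in 5xFAD-Dp16, 31, 19, 20 and 28 in 5xFAD, 12, 3, 1 and 1 in Dp16 and 0, 3, 5 and 1 in WT libraries. It had the largest log2 fold change of the 47 in 5xFAD against WT, 3.12 ± 0.71, on a total of 9 reads in WT, and Dp16 3 reached the level of the lowest 5xFAD-Dp16 library. Oas2 and Oasl1, also low in WT at 0.106 and 0.117 RPKM, the authors' level per depth and gene length, were not called (adjusted p = 0.0591 and 0.0598 in 5xFAD against WT, edgeR).

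Rsad2, or viperin, makes a nucleotide that stops viral RNA synthesis. It had 5.20, 5.37, 4.34 and 4.17 CPM in 5xFAD-Dp16, 3.83, 3.69, 3.40 and 3.34 CPM in 5xFAD, 3.00, 1.66, 2.98 and 1.06 CPM in Dp16 and 1.97, 1.06, 1.79 and 1.89 CPM in WT libraries. It was the 1 member with all 5xFAD-Dp16 libraries above all 5xFAD libraries, where 3.46% of all tested genes were, and the difference of 0.42 ± 0.27 (log2) was not called (adjusted p = 0.396, edgeR). Its call in 5xFAD against WT (1.09 ± 0.28, adjusted p = 0.0282) was lost in 5 of 8 fits that left out 1 library (adjusted p up to 0.0818, without 5xFAD 6). In 5xFAD-Dp16 against Dp16 (1.13 ± 0.28, adjusted p = 0.0315) the call was also lost in 5 of 8 (adjusted p up to 0.135, without Dp16 5). Cmpk2, a nucleotide kinase gene next to Rsad2, had 0.35 ± 0.11 in 5xFAD against WT and was not called, and Eif2ak2, which encodes the kinase PKR that halts translation, rose by 0.87 ± 0.14.

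In the ISG15 and ubiquitin pathway, 9 of 10 members rose in 5xFAD against WT, 9 in 5xFAD-Dp16 against WT and 8 in 5xFAD-Dp16 against Dp16. Isg15, the ubiquitin-like modifier, had 3.63, 3.06, 2.08 and 2.43 CPM in 5xFAD-Dp16, 5.73, 3.08, 2.86 and 4.81 CPM in 5xFAD, 0.74, 1.44, 2.36 and 1.57 CPM in Dp16 and 0.987, 1.10, 1.37 and 1.34 CPM in WT libraries. Libraries 6 and 15 of 5xFAD were the highest, and Dp16 12 overlapped with 5xFAD-Dp16. The log2 fold change was 1.76 ± 0.31 in 5xFAD against WT (adjusted p = 0.00215), 1.20 ± 0.31 in 5xFAD-Dp16 against WT (adjusted p = 0.0491) and 0.89 ± 0.31 in 5xFAD-Dp16 against Dp16 (adjusted p = 0.205, edgeR). The call against WT in 5xFAD-Dp16 was lost in all 8 fits that left out 1 library (adjusted p up to 0.183, without WT 2).

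Usp18, the protease that removes ISG15 and dampens signalling at IFNAR2, had 4.63, 3.91, 3.28 and 3.16 CPM in 5xFAD-Dp16, 5.00, 2.51, 3.15 and 4.25 CPM in 5xFAD, 1.03, 1.12, 2.54 and 0.847 CPM in Dp16 and 1.17, 1.30, 1.55 and 0.798 CPM in WT libraries. Dp16 12 was again the high library of its group. It rose by 1.64 ± 0.30 in 5xFAD against WT and 1.48 ± 0.30 in 5xFAD-Dp16 against Dp16 (log2). Uba7, the activating enzyme of ISG15, rose by 1.37 ± 0.17, and Herc6, which acts as its ligase in the mouse, by 0.83 ± 0.18 in 5xFAD against WT. Of the TRIM ubiquitin ligases, Trim30a rose by 1.64 ± 0.22 and Trim25 by 0.53 ± 0.11, and Trim21 was not called (0.67 ± 0.26, adjusted p = 0.127, edgeR). Parp9 and Parp14, ADP-ribosyltransferases, rose by 1.36 ± 0.14 and 1.18 ± 0.15. Dtx3l, the partner ligase of Parp9, rose by 0.46 ± 0.12, a call that was lost in 5 of 8 fits that left out 1 library (adjusted p up to 0.113, without WT 2).

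Among the membrane and trafficking proteins, 4 of 4 rose in 5xFAD against WT, 2 in 5xFAD-Dp16 against WT and 3 in 5xFAD-Dp16 against Dp16. Bst2, or tetherin, which holds budding virus at the cell surface, had 11.3, 12.7, 6.85 and 11.4 CPM in 5xFAD-Dp16, 11.3, 7.09, 13.05 and 12.6 CPM in 5xFAD, 3.74, 4.22, 5.30 and 3.43 CPM in Dp16 and 2.71, 3.60, 7.25 and 4.12 CPM in WT libraries. WT 7 was the high library of its group and overlapped with the lowest transgenic libraries. Bst2 rose by 1.31 ± 0.26 in 5xFAD against WT and by 1.35 ± 0.26 in 5xFAD-Dp16 against Dp16. Rtp4, a chaperone of receptors at the membrane, had 7.30, 5.10, 3.57 and 5.54 CPM in 5xFAD-Dp16, 7.55, 4.70, 5.82 and 5.97 CPM in 5xFAD, 1.93, 2.08, 3.29 and 2.54 CPM in Dp16 and 1.29, 1.87, 2.40 and 0.84 CPM in WT libraries. It rose by 1.91 ± 0.26 in 5xFAD against WT (adjusted p = 0.000181). In 5xFAD-Dp16 against Dp16 it rose by 1.11 ± 0.25 (adjusted p = 0.0197, edgeR), a call lost in 4 of 8 fits that left out 1 library (adjusted p up to 0.0967, without Dp16 5). Ifitm3, which blocks the fusion of viruses in endosomes, rose by 0.95 ± 0.21 and Tor3a, a torsin ATPase, by 0.66 ± 0.14 in 5xFAD against WT.

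Of 9 other interferon-induced genes, 7 rose in 5xFAD against WT, 6 in 5xFAD-Dp16 against WT and 5 in 5xFAD-Dp16 against Dp16. Ifi27 had 36.8, 45.2, 31.6 and 37.7 CPM in 5xFAD-Dp16, 44.9, 26.5, 42.8 and 40.7 CPM in 5xFAD, 24.6, 29.9, 32.4 and 23.2 CPM in Dp16 and 22.3, 23.2, 40.3 and 27.5 CPM in WT libraries. WT 7 lay among the transgenic libraries and 5xFAD 10 among those without transgenes, and the difference was not called (0.45 ± 0.18 on the log2 scale in 5xFAD against WT, adjusted p = 0.132, edgeR). Per gene length it was the most abundant member in WT, at 27.4 ± 7.89 RPKM (mean and SD, n = 4), before Ifitm3 at 17.7 ± 5.88 RPKM. The least abundant was Oas3, at 0.0224 ± 0.0223 RPKM. Ifi44 rose by 1.93 ± 0.42, Xaf1, which opposes an inhibitor of apoptosis, by 1.23 ± 0.22, Ifi35, a binding partner of Nmi, by 1.22 ± 0.23, and Lgals9, a galectin, by 1.08 ± 0.13 in 5xFAD against WT.

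Psmb8 and Psmb9, catalytic subunits that replace those of the standard proteasome in the immunoproteasome, rose in all 3 comparisons. Psmb8 had 12.9, 9.85, 10.9 and 11.2 CPM in 5xFAD-Dp16, 16.5, 12.4, 12.3 and 12.8 CPM in 5xFAD, 4.44, 4.70, 5.52 and 5.04 CPM in Dp16 and 2.90, 4.66, 4.38 and 3.99 CPM in WT libraries. Psmb9 had 4.85, 3.68, 3.81 and 4.12 CPM in 5xFAD-Dp16, 5.81, 4.46, 5.04 and 4.92 CPM in 5xFAD, 1.40, 2.19, 1.34 and 1.57 CPM in Dp16 and 0.987, 1.15, 1.84 and 1.26 CPM in WT libraries. Neither gene had a transgenic library at or below the highest library without transgenes. The log2 fold changes in 5xFAD against WT were 1.75 ± 0.16 for Psmb8 (adjusted p = 2.33e-06) and 1.94 ± 0.20 for Psmb9 (adjusted p = 1.1e-05, edgeR). Of 14 genes of the standard proteasome core, none was called in 5xFAD against WT or in the other pairwise comparisons. Psmb5, the subunit that Psmb8 replaces, was at 0.05 ± 0.09 there, and Psmb6, which Psmb9 replaces, at 0.23 ± 0.08 (adjusted p = 0.0903).

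The comparisons of 5xFAD with WT and of 5xFAD-Dp16 with Dp16 share no library. All 47 members had a positive fold change in each, against 53.8% and 48.5% of all genes. Of the 40 members called in 5xFAD against WT, 31 (77.5%) were also called in 5xFAD-Dp16 against Dp16, which is 100% of the members called there. The overlap of calls over all genes is not given here, so these shares have no yardstick. The 9 called in 5xFAD against WT but not in the other were Irf1, Stat2, Ifit2, Oas3, Isg20, Isg15, Ifitm3, Ifi44 and Slfn5. Across the 47 genes, which are not independent, the 2 sets of log2 fold changes had Pearson's r of 0.84, against 0.51 across all genes. The fold change with the duplication was smaller for 33 of 47.

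**Figure D3:**
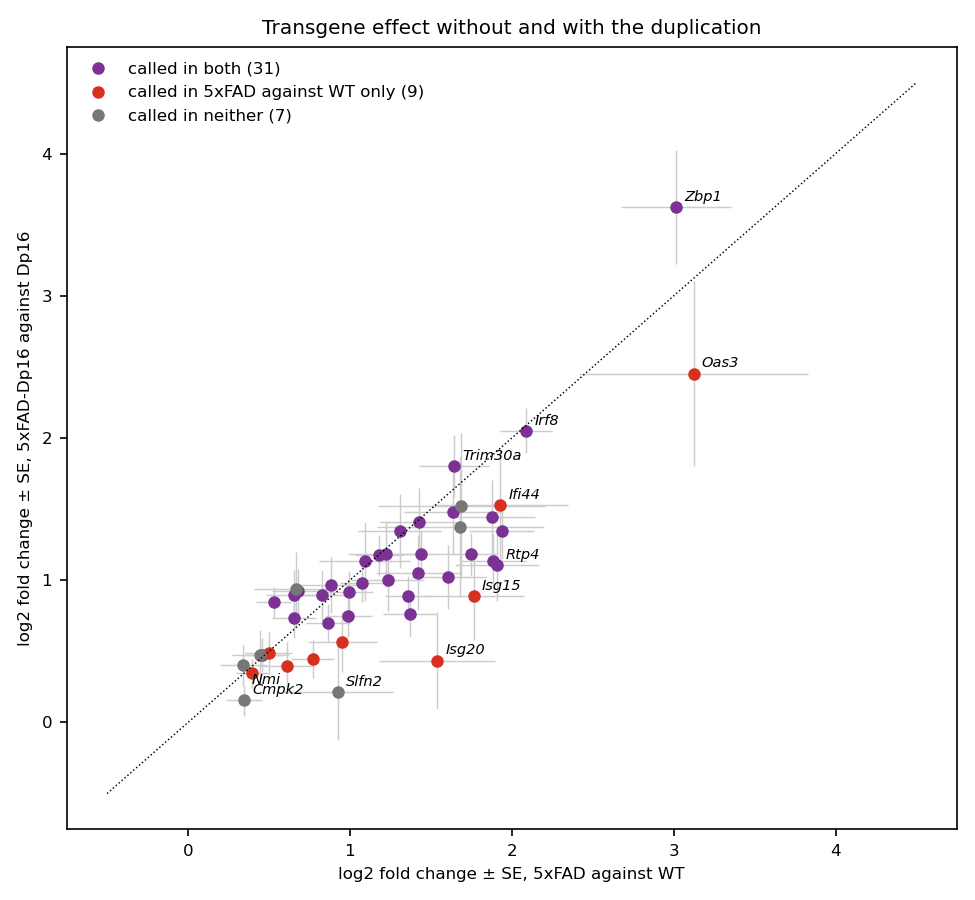
Log2 fold change ± SE of each of the 47 genes in 5xFAD-Dp16 against Dp16 (vertical) and 5xFAD against WT (horizontal). The dotted line marks equal change. Most points lie near it or below it, and the 9 points called in 5xFAD against WT alone include Isg15 and Isg20.

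The difference between these 2 effects, tested as an interaction, was called for 0 of 47 members and for 0 of 17132 genes (0%). Its median was -0.17 over the members and -0.00 over all genes. It was negative for 33 of 47 members and positive for 14, where 49.3% of all genes were positive. At an unadjusted p under 0.05 there were 7 members, all negative, namely Ifit3, Psmb8, Uba7, Parp9, Isg20, Rtp4 and Psmb9. The share of all genes below this level was 6.5%. The 12 thalamus markers had a median of -0.98 in the interaction, with 1 positive and 0 called. The part of thalamic content in the interaction values was not tested. The value of Ifit3 was -0.75 ± 0.27 (95% interval -1.33 to -0.17), and without the filter on low counts it alone was called (adjusted p = 0.0348). The most negative values were those of Isg20 (-1.10), Isg15 (-0.87), Rtp4 (-0.80), Ifit3 (-0.75), Slfn2 (-0.72) and Oas3 (-0.67). The most positive were Zbp1 (0.61), Trim25 (0.31), Trim21 (0.27), Ddx58 (0.24), Samd9l (0.24) and Trim30a (0.16).

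Between 5xFAD-Dp16 and 5xFAD, no member was called in either direction (0.245% of all genes rose and 0.0584% fell). The median was -0.06, with 17 of 47 positive, where 45.6% of all genes were positive. Of 12 thalamus markers 0 were positive in this comparison (median -0.70), and the part of thalamic content was not tested. Ifit2, Nmi, Parp9, Tor3a and Zbp1 had all 4 libraries of 5xFAD-Dp16 below all 4 of 5xFAD, where 3.89% of all genes did. Nmi, whose levels are shown because of this and were chosen after they were seen, had 4.59, 4.04, 4.25 and 4.67 CPM in 5xFAD-Dp16, 5.89, 6.12, 5.38 and 5.38 CPM in 5xFAD, 3.12, 3.26, 2.80 and 4.06 CPM in Dp16 and 5.06, 4.37, 4.33 and 4.24 CPM in WT libraries. It was below its counterpart without the duplication in both pairs, by a log2 fold change of -0.38 ± 0.14 in 5xFAD-Dp16 against 5xFAD (adjusted p = 0.182) and -0.44 ± 0.14 in Dp16 against WT (adjusted p = 0.691, edgeR), neither of which was called. At an unadjusted p under 0.05 there were 3 members, Nmi, Zbp1 and Ifit2, and 19.1% of all genes. The 95% interval lay within -1 and 1 for 41 of 47 members. The largest values were those of Rsad2 (0.42), Ddx58 (0.29), Dtx3l (0.22), Samd9l (0.19), Trim25 (0.14) and Parp14 (0.13), and the smallest those of Zbp1 (-0.89), Isg15 (-0.56), Nmi (-0.38), Ifit2 (-0.36), Slfn2 (-0.31) and Psmb9 (-0.30).

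In Dp16 against WT, 32 of 47 members had a positive and 15 a negative fold change, where 50.3% of all genes were positive. The 95% interval lay within -1 and 1 for 37 members. DESeq2 and the other alternatives also called 0 members. At an unadjusted p under 0.05 there were 7: Isg20 (0.88), Rtp4 (0.63), Ifit1 (0.60) and Ifit3 (0.51) were higher, and Zbp1 (-1.50), Nmi (-0.44) and Tor3a (-0.34) lower. Of all genes, 5.7% had such a p. Oas3 (0.79) and Oasl2 (0.51) completed the 6 largest, and Trim21, Irf8 (each -0.22) and Ifi35 (-0.20) the 6 smallest. Dp16 against WT and 5xFAD-Dp16 against 5xFAD share no library. The sign of the difference was the same in both for 24 of 47 members and for 59.6% of all genes.

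**Figure D4:**
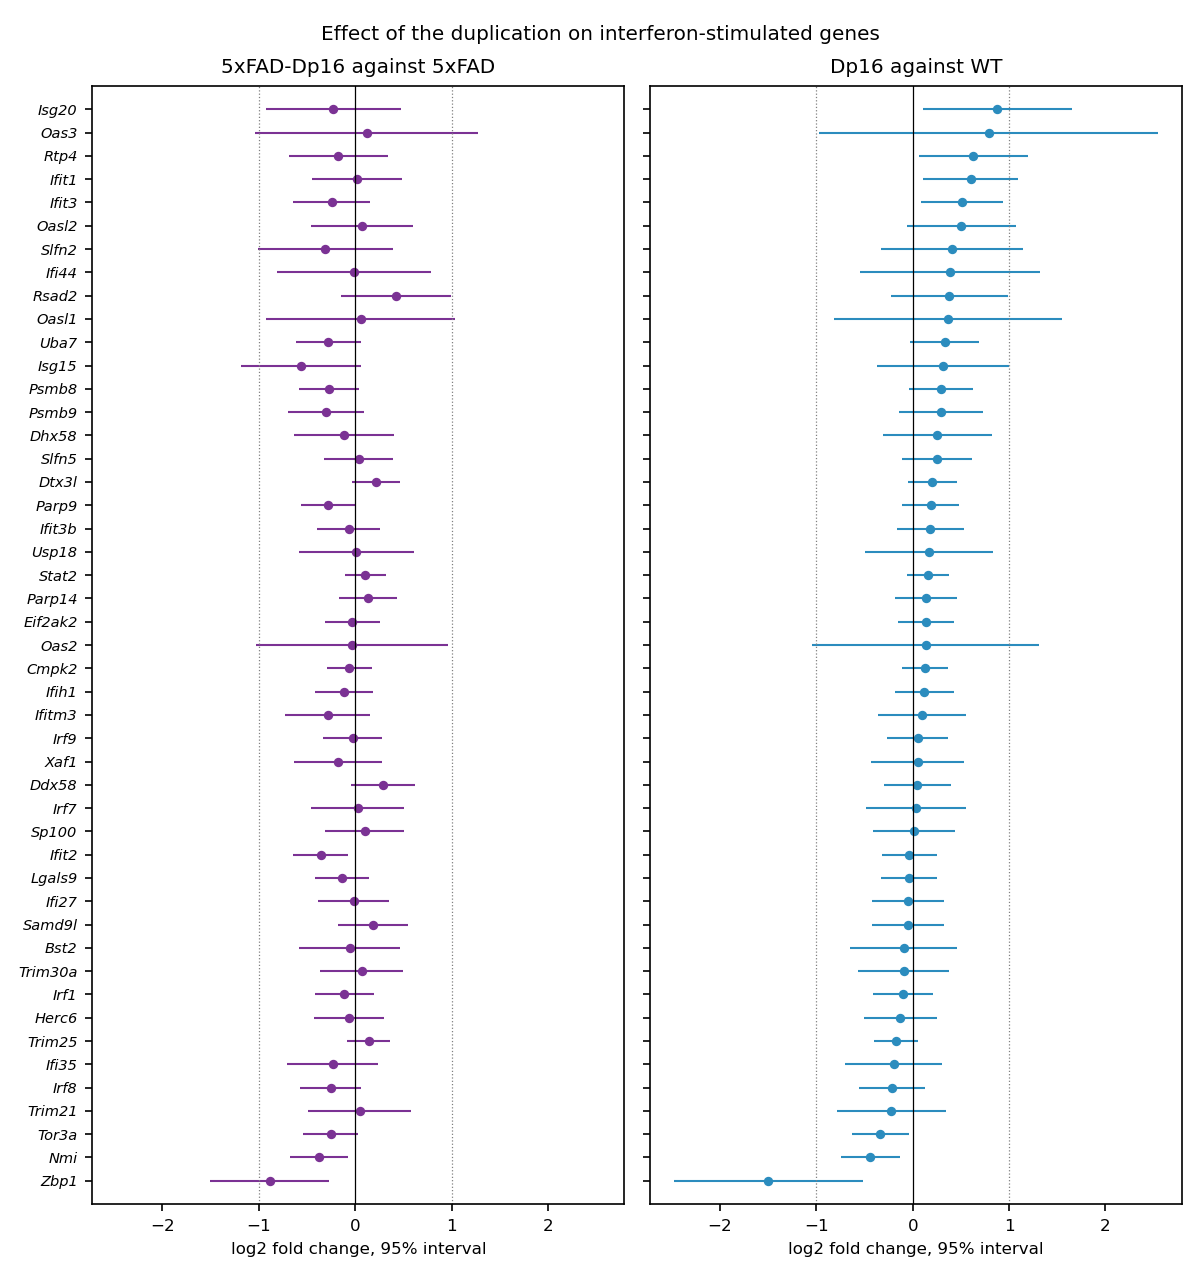
Log2 fold change with its 95% interval for each of the 47 genes in 5xFAD-Dp16 against 5xFAD (left) and in Dp16 against WT (right), ordered by the value on the right. Most intervals cross 0 and lie between the dotted lines at -1 and 1, and the intervals of low genes such as Oas3 and Zbp1 are wide.

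Per library, the mean log2 CPM of the 47 genes, set to 0 at the WT mean, was 1.39, 1.08, 0.92 and 1.09 in 5xFAD-Dp16 and 1.33, 1.05, 1.25 and 1.23 in 5xFAD libraries. It was 0.03, 0.02, 0.34 and 0.05 in Dp16 and -0.11, -0.02, 0.29 and -0.16 in WT libraries. Library 12 was the highest of Dp16 and exceeded the highest WT library in 26 of 47 genes, against 8, 9 and 14 genes in Dp16 3, 5 and 14. Without it the median of Dp16 against WT was 0.06. This library had a plaque-associated microglia score of 0.52, against -0.17 to -0.04 in the other Dp16 libraries. Its homeostatic microglia score was -0.03, against -0.30 to 0.08 in those libraries. Its choroid plexus score was -4.64, and those of Dp16 3, 5 and 14 were -3.90, -1.26 and -3.77. Library 7 was the highest of WT and had the highest choroid plexus (1.69), meningeal fibroblast (0.99) and border macrophage (0.53) scores of its group. The part of these cell types in the levels of both libraries was not tested.

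**Figure D5:**
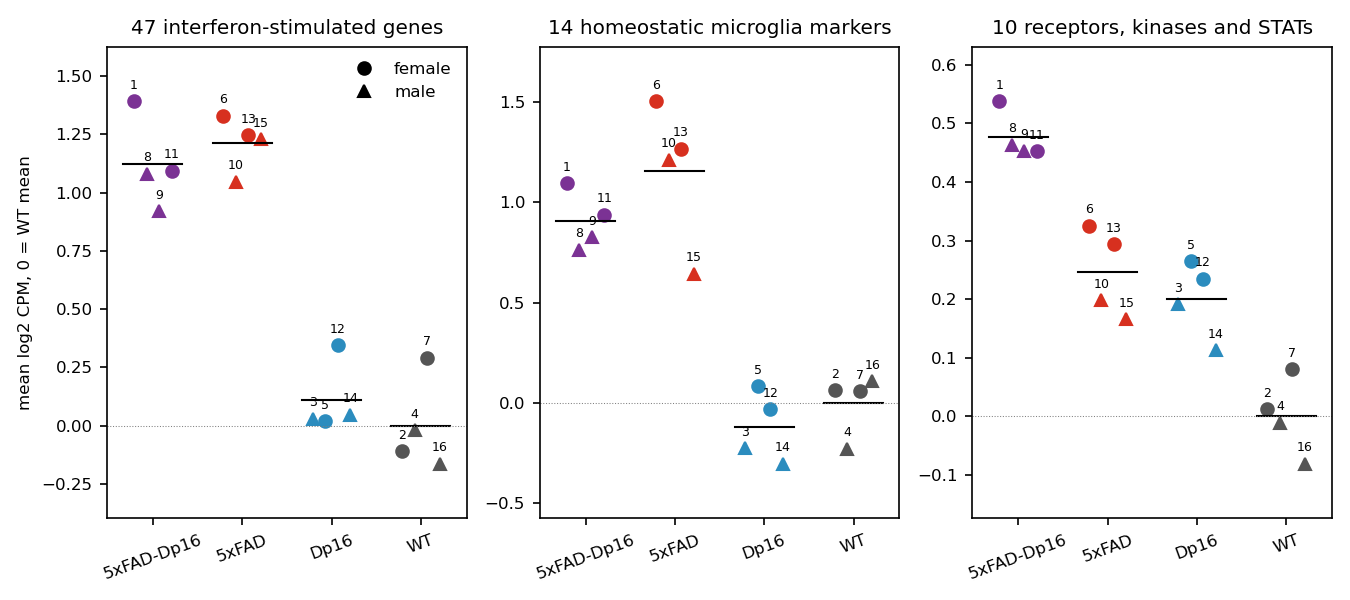
Mean log2 CPM per library, relative to the WT mean, of the 47 interferon-stimulated genes (left), of 14 homeostatic microglia markers (middle) and of 10 receptors, kinases and STATs (right), with circles for females, triangles for males and bars for group means. In the left and middle panels the Dp16 libraries lie beside WT. In the right panel the Dp16 libraries lie above WT and the 5xFAD-Dp16 libraries above all others. The genes of this panel include Ifnar1, Ifnar2, Ifngr2 and Il10rb, which lie in the triplicated segment. In Dp16 against WT 2 of its 10 genes were called, and their median log2 fold change over the 10 was 0.06.

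Whether the transgene effect differed between the sexes was also tested. None of the 47 members was called, nor any of the 17132 genes (0%), and DESeq2 called 0 members. Lgals9 alone of the members had an unadjusted p under 0.05, as had 3.73% of all genes. Its value was 0.37 ± 0.17 on the log2 scale, females minus males (adjusted p = 0.936, edgeR). All 12 thalamus markers were positive in this contrast, with a median of 2.59, and 0 were called. Of the libraries of high thalamus markers, 5xFAD-Dp16 1 and 5xFAD 6 and 13 were female. The others, 5xFAD 15, Dp16 14 and WT 4, were male. The part of thalamic content in the sex difference was not tested. In the plot of scores per library the highest library of every group was a female, namely 1 in 5xFAD-Dp16, 6 in 5xFAD, 12 in Dp16 and 7 in WT. The other female lay above both males in 5xFAD-Dp16 (library 11, 1.09) and in 5xFAD (library 13, 1.25). In Dp16 the other female, library 5, was the lowest of its group (0.02). Among WT libraries the other female, library 2 (-0.11), lay below male 4 (-0.02).

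Of the 4 receptor genes in the triplicated segment, Ifnar1 and Ifngr2 rose with the duplication in both pairs of groups, and Ifnar2 and Il10rb were called in neither. Ifnar1 rose by 0.59 ± 0.07 in Dp16 against WT (adjusted p = 0.000778) and by 0.64 ± 0.07 in 5xFAD-Dp16 against 5xFAD (adjusted p = 0.000181, edgeR). Ifngr2 had 91.9 to 109 CPM in 5xFAD-Dp16 and 97.4 to 120 CPM in Dp16, against 49.8 to 71.6 CPM in 5xFAD and 61.1 to 69.2 CPM in WT libraries, and rose by 0.72 ± 0.11 in 5xFAD-Dp16 against 5xFAD and by 0.78 ± 0.11 in Dp16 against WT. Ifnar2 missed the threshold, at 0.38 ± 0.10 (adjusted p = 0.111) in 5xFAD-Dp16 against 5xFAD and 0.52 ± 0.11 (adjusted p = 0.0553) in Dp16 against WT, as did Il10rb, the shared chain of the interferon lambda and interleukin-10 receptors, at 0.26 ± 0.17 and 0.21 ± 0.17 (edgeR). Ifnar2 rose with the transgenes, by 0.53 ± 0.11 in 5xFAD against WT (adjusted p = 0.00595). Outside the segment, Ifngr1 rose by 0.58 ± 0.08 in 5xFAD against WT and was not called in Dp16 against WT (-0.01 ± 0.08).

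Interferon transcripts themselves were hardly seen. None of 21 interferon genes passed the filter. The 5xFAD-Dp16 libraries held 2 reads of Ifng and 1 each of Ifna9 and Ifna12, all read 0 in every 5xFAD and Dp16 library, and WT libraries held 1 read of Ifnab. A count of 0 allows up to 3 reads, or 0.119 to 0.177 CPM depending on the library, counting error only.

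Of 41 further interferon-stimulated genes listed, 35 were tested, and 24 rose in 5xFAD against WT, 14 in 5xFAD-Dp16 against WT, 17 in 5xFAD-Dp16 against Dp16 and 0 in Dp16 against WT, with medians of 1.33, 1.20, 1.03 and 0.07 on the log2 scale. Of all tested genes, 5.31%, 3.1%, 2.99% and 0.222% rose in these comparisons. Some of the 35, such as Mx1, Oas1b and Ifi211, stayed below the filter's cutoff of 0.436 CPM in every WT and Dp16 library. They passed the filter only through transgenic libraries, and the counts above include such genes. Tap1, the peptide transporter of antigen presentation, rose by 1.26 ± 0.15, Lgals3bp by 1.62 ± 0.18 and Oas1a by 2.59 ± 0.34 in 5xFAD against WT. Mx1 and Mx2, antiviral GTPases, lie in the triplicated segment. Mx1 had 0.434 to 1.74 CPM in 5xFAD-Dp16, 0.562 to 1.34 CPM in 5xFAD, 0.123 to 0.312 CPM in Dp16 and 0.048 to 0.235 CPM in WT libraries. It rose by 2.75 ± 0.55 in 5xFAD against WT, and its 0.72 ± 0.63 in Dp16 against WT was not called. Mx2 rose by 2.30 ± 0.57 in 5xFAD against WT and had 1.23 ± 0.60 in Dp16 against WT (adjusted p = 0.894, edgeR).

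Of 16 other genes of nucleic acid sensing, 5 rose in 5xFAD against WT, 4 in 5xFAD-Dp16 against Dp16 and 0 in Dp16 against WT. Irf5, a factor downstream of Toll-like receptors, rose by 1.39 ± 0.20 and Tlr7 and Tlr9, endosomal receptors of RNA and DNA, by 1.42 ± 0.28 and 1.12 ± 0.24 in 5xFAD against WT. The others called there were Samhd1 (0.39) and Tmem173 (0.82), which encodes the adaptor STING. Of 7 negative regulators, Ptpn6, a phosphatase of blood-derived cells, rose by 2.02 ± 0.16 and Socs3, a feedback inhibitor of JAK signalling, by 1.46 ± 0.38 in 5xFAD against WT. Pias1, an inhibitor of STAT signalling, fell by 0.26 there (adjusted p = 0.0499, edgeR).

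Microglia markers moved with the transgenes in the same comparisons. Of all tested genes, 5.31% rose in 5xFAD against WT, 3.1% in 5xFAD-Dp16 against WT and 2.99% in 5xFAD-Dp16 against Dp16. All 14 homeostatic microglia markers rose in 5xFAD against WT (median 1.15 on the log2 scale), 10 in 5xFAD-Dp16 against WT (1.01) and 14 in 5xFAD-Dp16 against Dp16 (1.06), and none was called in Dp16 against WT. Their summed level was 902 to 1084 CPM in 5xFAD-Dp16, 801 to 1475.0 CPM in 5xFAD, 421 to 533 CPM in Dp16 and 429 to 526 CPM in WT libraries. Of 16 plaque-associated markers, 15 were tested and 14 rose in 5xFAD against WT (median 2.93) and 13 in 5xFAD-Dp16 against Dp16 (2.16). They summed to 1470.0 to 1833 CPM in 5xFAD-Dp16, 1415.5 to 2828 CPM in 5xFAD, 526 to 558 CPM in Dp16 and 519 to 662 CPM in WT libraries, and Lilrb4a was at 0 in all Dp16 and WT libraries. Trem2, a lipid receptor of microglia, rose by 3.26 ± 0.17 in 5xFAD against WT. In bulk tissue more cells of a type and more RNA per cell cannot be told apart, and the part of microglia number in the rise of the 47 genes was not tested.

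None of 7 border macrophage markers was called in 5xFAD against WT or 5xFAD-Dp16 against Dp16, and they summed to 26.2 to 40.4 CPM in 5xFAD-Dp16, 23.2 to 47.2 CPM in 5xFAD, 27.1 to 35.6 CPM in Dp16 and 24.6 to 40.2 CPM in WT libraries. Of 10 lymphocyte markers 3 were tested, and Cd3e, a subunit of the T cell receptor complex, rose in 5xFAD against WT (3.66 ± 0.80) and in 5xFAD-Dp16 against Dp16 (2.43 ± 0.62). Whether Cd3e or the other cell type markers would have passed the filter without transgenic libraries is not given here. The list summed to 3.28 to 4.90 CPM in 5xFAD-Dp16, 2.58 to 3.59 CPM in 5xFAD, 0.822 to 2.46 CPM in Dp16 and 1.17 to 1.58 CPM in WT libraries, with Ms4a1 at 0 in all 5xFAD-Dp16, 5xFAD and Dp16 libraries. In 5xFAD against WT, 2 of 9 astrocyte markers, S100b (0.87) and Aqp4 (0.90), rose, 1 of 10 neuron markers, Grin1, fell by 0.41 on the log2 scale, and 0 of 9 endothelial and 0 of 8 oligodendrocyte markers were called. The part of these cells in the members' levels was not tested.

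A direct comparison of the 2 single genotypes, added after the results above were seen, was made too. In 5xFAD against Dp16, 38 of 47 members rose and none fell (9.11% of all genes rose and 7.34% fell), with a median of 1.04, and 38 members had all 4 libraries of 5xFAD above all 4 of Dp16 and none below (10.2% and 6.23% of all genes). In the same comparison Ifnar1 fell by 0.56 and Ifngr2 fell by 0.86 on the log2 scale, both called. Without the 6 libraries of high thalamus markers 9 members were called.

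Some members share exons or sequence with other genes, and the counting rule for such reads was not given in the sources used here. Dtx3l and Parp9 overlap over 458 bases on opposite strands, Psmb9 and Tap1 over 212 bases, Psmb8 and Gm20496 over 498 bases (14.7% of its exons) and Ifi35 and Gm11626 over 290 bases (16.8%). The kit keeps the strand, but the strand setting of the counting was not given. The levels of Ifit3 and Ifit3b, of Oasl1 and Oasl2, and of Ifitm3 and Trim30a, which have close relatives, are uncertain to the extent that reads were shared.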

How the data were processed

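Polyadenylated RNA of mouse hippocampus was sequenced as 150 base pair ends from a strand-specific library, per the labels' protocols. Per the submitters' processing notes, HTSeq 0.6.1, HISAT2 2.1.0 and the build GRCm38 were used, besides SAMtools 1.5, bcl2fastq and, for quality, FastQC 0.11.5. The strand setting of the counting was not given in the sources used here. The authors deposited raw counts per gene and RPKM values. The deposited RPKM were used for levels per length and in an alternative test only.

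The counts of 17132 genes were scaled by the TMM method (factors 0.944 to 1.13) and tested with edgeR 4.0.16 (R 4.3.3), by robust quasi-likelihood fits with group and sex over all 16 libraries, a minimum count of 10 in the filter, and Benjamini-Hochberg adjustment over all genes tested, with a threshold of 0.05. The fit was tested on simulated data. Values ± are SE for fold changes and SD for levels, and intervals are 95%. Totals of 16922937 to 25308693 counts per library set the precision.

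The 47 members, the other gene lists and the markers were chosen with earlier results of these data known. Levels in every library were given for 16 members named by rule and for Nmi and Oas3, chosen after their values were seen. In each comparison except 5xFAD against Dp16 and the sex difference, the 6 largest and 6 smallest fold changes were named, and of other lists the 3 called genes of smallest p in each direction, besides receptor, Mx and proteasome genes. Some items are not reported here. Alternatives were DESeq2 1.42.0, its size factors in edgeR, no low-count filter, no sex term, only the groups compared, limma 3.58.1 on log2(RPKM + 0.1) and log2(RPKM + 1), leaving out each library, and leaving out libraries of high thalamus markers. The comparison of 5xFAD with Dp16 and the replicate block were added after seeing the data. Exon overlaps were read from an annotation of the same build but an earlier release than the one named by the deposited table. Promoter windows came from RefSeq and 9 members had none: Dhx58, Zbp1, Oas2, Usp18, Parp9, Parp14, Rtp4, Tor3a and Ifi27.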

Additional observations from a re-analysis of the deposited data

Results flagged for a closer look

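In 11 of 188 sets of 4 libraries (each gene in each genotype), 1 library stood apart from the other 3 by more than Dixon's 95% critical value for the gap over the range. Chance gives about 1 in 20. Library 12 of Dp16 was the high library for Oasl2 (14.6 CPM, others 4.83 to 5.56), Usp18 (2.54 CPM, others 0.847 to 1.12) and Ifitm3 (18.4 CPM, others 10.6 to 11.7). Library 2 of WT was high for Nmi (5.06 CPM, others 4.24 to 4.37) and Slfn2 (3.51 CPM, others 1.37 to 1.44) and low for Lgals9 (7.40 CPM, others 8.71 to 8.82). Library 7 of WT was high for Dhx58 (2.12 CPM, others 0.966 to 1.10).

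Library 14 of Dp16 was high for Slfn5 (12.7 CPM, others 10.2 to 10.3). Library 1 of 5xFAD-Dp16 was high for Oasl1 (1.84 CPM, others 0.579 to 0.71). In 5xFAD, library 6 was high for Psmb8 (16.5 CPM, others 12.3 to 12.8) and library 10 low for Stat2 (23.1 CPM, others 29.7 to 30.6). The causes were not tested.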

How the results depend on the processing

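No called member changed direction under the alternatives run. Of the member medians, that of 5xFAD-Dp16 against 5xFAD (-0.06) was 0.01 when libraries of high thalamus markers were left out, and that of the sex difference (-0.02) ran from -0.11 to 0.12 over the alternatives. Leaving out 1 library at a time gave 33 to 42 members called in 5xFAD against WT (median 1.15 to 1.27), 29 to 33 in 5xFAD-Dp16 against WT (1.06 to 1.13), 24 to 30 in 5xFAD-Dp16 against Dp16 (0.87 to 1.02) and 32 to 40 in 5xFAD against Dp16 (0.98 to 1.10). It gave 0 in Dp16 against WT (0.06 to 0.18), 5xFAD-Dp16 against 5xFAD (-0.14 to -0.02), the interaction (-0.20 to -0.04) and the sex difference (-0.07 to 0.07). Every one of these fits called 31 of the 40, 29 of the 34 and 24 of the 31 members of the first 3 comparisons. On log2(RPKM + 1), a scale on which low genes change less, the medians were 0.65 in 5xFAD against WT, 0.57 in 5xFAD-Dp16 against WT, 0.55 in 5xFAD-Dp16 against Dp16 and 0.61 in 5xFAD against Dp16, and 1 member, Zbp1 (-0.38, adjusted p = 0.0157, limma), was called in 5xFAD-Dp16 against 5xFAD. Without the low-count filter 1 member, Ifit3, was called in the interaction, and the cause was not tested. Without the libraries of high thalamus markers, which leaves 1 library of 5xFAD, 13 members were called in 5xFAD against WT (median 1.02) and 9 in 5xFAD against Dp16. With a replicate block by the number in the source label, 38, 33, 29 and 37 members were called in the comparisons in the order first given, and 0 in Dp16 against WT, 5xFAD-Dp16 against 5xFAD and the interaction. The deviations of libraries from their group means, over all tested genes, were correlated between libraries of different genotypes. Pearson's r was over 0.1 in 6 of 24 pairs of the same number (-0.31 to 0.54, median -0.04). It was over 0.1 in 21 of 72 other pairs (median -0.03). No label says that the numbers pair libraries, and a count of pairs past a limit cannot settle it. Depth limits Oas3 and Zbp1 most, with 9 and 19 reads in WT.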
